A study of Mus musculus with 6 samples.

Results

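The genes described here encode the mouse SWI/SNF, ARID and CHD chromatin remodellers. They were taken from the count table by symbol, as every row whose name begins with Smarca to Smarce, Arid1 to Arid5 or Chd1 to Chd9, which gave 34 of 17459 rows. A filter on low counts kept 32 of them for testing. Chd5 and the pseudogene Smarca5-ps were set aside, with counts of 24, 10 and 10 in cWT and 9, 4 and 2 in cKO for Chd5, and at most 6 counts per library for Smarca5-ps. Of the tested rows, Chd3os is no remodeller: it lies next to Chd3, its RefSeq name is Rnf227, and it is counted below as a member only because its symbol meets the rule. The other 31 are remodeller genes or their relatives.

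Expression was measured by RNA sequencing in microglia, the resident macrophages of the brain, isolated from male C57BL/6J mice aged 8 weeks. The cKO mice were Mir137loxP/loxP with a tamoxifen-inducible Tmem119-CreERT2 allele, in which Cre is driven from a gene typical of microglia, and the cWT mice were Mir137+/+ with the same Cre allele. All mice received tamoxifen on 7 days at 7 to 8 weeks of age. There were 3 libraries of each genotype, from an isolation in which 4 mice are named, without a statement of how mice fall into libraries, so p-values measure the spread between these libraries, which may be technical. The level of Mir137 was not analysed here, and these values hold no check of the deletion. The libraries held 16503817 to 17482042 estimated counts in cWT and 12068698 to 15212806 in cKO. Levels are given as CPM, the usual depth-scaled count, with TMM factors that scale between libraries, and a gene was called changed at an adjusted p under 0.05 over all 13490 genes tested with edgeR's quasi-likelihood test. Microglial markers were abundant in both genotypes, with 12 of 12 tested and summed levels of 39977 to 42491 CPM in cWT and 45621 to 53004 CPM in cKO.

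Chromatin remodellers use ATP to slide, eject or restructure nucleosomes and so set which stretches of DNA are accessible. The SWI/SNF complexes, called BAF in mammals, are built on either of the ATPases Smarca4 and Smarca2 with a core of Smarcb1, Smarcc, Smarcd and Smarce1 subunits. They are completed by Arid1a or Arid1b in canonical BAF, and by Arid2 in PBAF. Most CHD proteins carry chromodomains, which can bind histone tails. Chd3, Chd4 and Chd5 are the ATPases of the NuRD complex, which also removes acetyl groups from histones. In macrophages, SWI/SNF opens enhancers and promoters of inducible genes, and NuRD acts on the same class of elements as a repressor.

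Since the study set out to delete the gene of miR-137, the sequences below show where a remodeller transcript could pair with its seed. The mature 3p arm comes from RefSeq (GRCm38.p6, chromosome 3, 118433901 to 118433923, plus strand), with the seed, bases 2 to 8, in capitals. The DNA letters that pair with the seed are AGCAATA. They occur in the longest annotated 3' UTR of 4 of the 32 tested members, which are shown with the match in capitals and 11 bases on each side (GRCm38). In Arid4b, Chd7 and the first of the Chd9 sites the match is followed by A, which makes the 8-base form of the site.
mmu-miR-137-3p: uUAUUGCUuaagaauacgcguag
Arid4b (chr13:14197920-14197948, plus strand): gcttttcctcaAGCAATAattgtttccaa
Chd7 (chr4:8867233-8867261, plus strand): tcccgaggctcAGCAATAatcaggcagct
Chd9, site 1 (chr8:91052357-91052385, plus strand): gatcaaaactcAGCAATAatttgggcagc
Chd9, site 2 (chr8:91053637-91053665, plus strand): tgcaatgtcttAGCAATAgtcactgtaat
Chd3os (chr11:69341873-69341901, plus strand): actgactctgtAGCAATActggggaaaag
No other tested member holds these letters in its longest annotated 3' UTR, Arid1a, Smarca4, Smarca2 and Chd4 included. Over all tested genes with a 3' UTR the share with a match was 10.2%, and over the members it was 12.5%, with median 3' UTRs of 1192 and 1464 bases. A match is a description of letters and not evidence of binding.

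Remodeller transcripts were lower in cKO microglia in most cases. Of the 32 tested members, 24 fell, 3 rose and 5 did not pass the test, where 36.5% of all tested genes fell, 35.6% rose and 72.1% passed in either direction. The median log2 fold change of the members was -1.45, beside -0.02 over all genes. With offsets that take the trend with transcript length and GC content out of each library, described below, the median of the members was -0.40, and 21 fell and 5 rose, where 27.6% and 29.6% of all genes did. A fall of at least 2-fold was called for 21 members, against 19.6% of all genes, and one of at least 4-fold for 4 members, Arid1a, Chd9, Chd7 and Arid1b, against 3.8%. For each of the 24 members that fell, the highest cKO library lay below the lowest cWT library, a separation in that direction seen in 37.9% of all genes. The 3 that rose were separated the other way, as were 36.7% of all genes. Summed over the remodeller genes of the table without Chd3os and Smarca5-ps, the level was 2243, 2265 and 2342 CPM in the cWT libraries and 879.7, 913 and 909.9 CPM in the cKO libraries, so that the cKO mean stood at 39.5% of the cWT mean. These sums were taken without the offsets and weigh the most counted genes most. The authors' deposited table has 24 members lower and 3 higher at its adjusted p under 0.05. In bulk libraries, fewer cells of a type and less RNA per cell cannot be told apart. Scaling by library size alone, without TMM factors, lowered the median of all genes from -0.02 to -0.42 and gave 3331 genes higher and 6742 lower, compared with 4803 and 4926. On that scale 26 members fell and 0 rose.

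**Figure D1:**
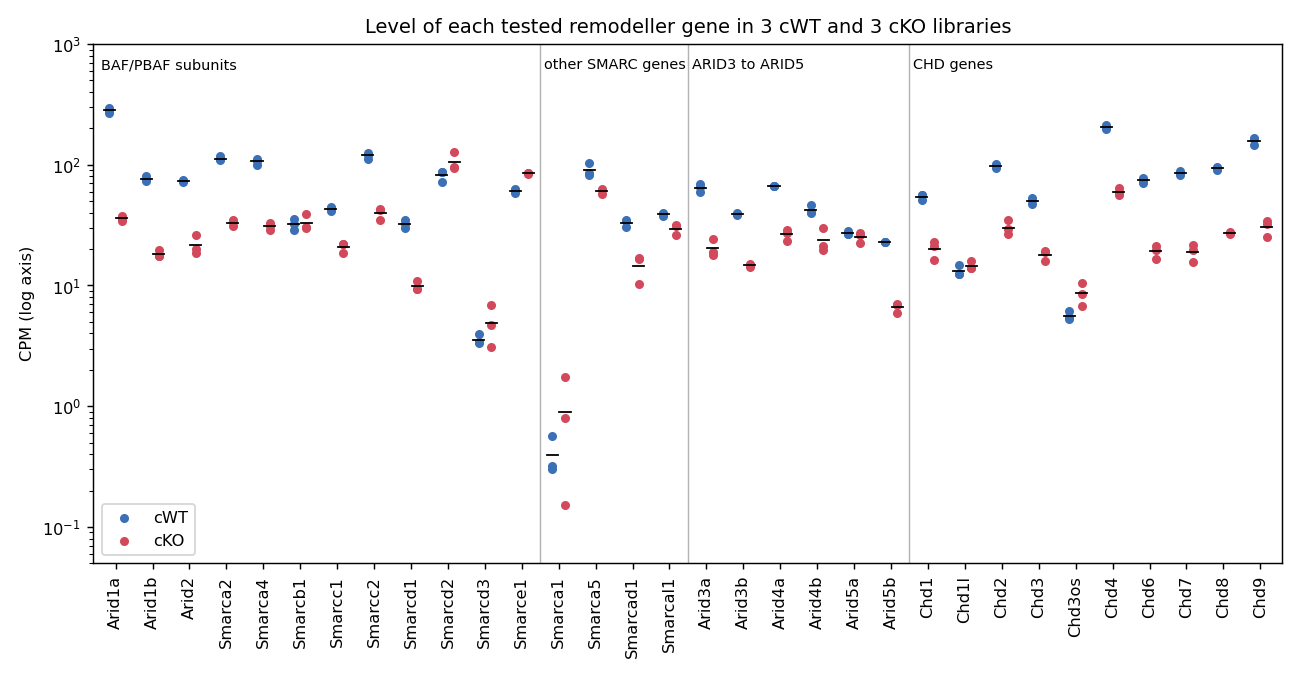
Normalised level (CPM, log axis) of the 32 tested members in each library, with cWT in blue, cKO in red and a bar at the mean of 3 libraries. Arid1a drops from 283 to 36.0 CPM, whereas Smarcd2 and Smarce1 are the remodeller genes whose cKO libraries all lie above the cWT libraries.

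Of the 12 tested BAF and PBAF subunits, 8 fell and 2 rose, where 36.5% of all genes fell and 35.6% rose. Their median log2 fold change was -1.65. With the length and GC offsets 8 fell and 2 rose, with a median of -0.47. Both catalytic subunits of BAF fell, by 3.45-fold and 3.38-fold. Smarca4, also known as BRG1 (chromosome 9, 21616169 to 21704230), measured 100.1, 108 and 111 CPM in the cWT libraries and 28.8, 32.9 and 31.0 CPM in the cKO libraries, a log2 change of -1.78 (SE 0.10, adjusted p = 4.00e-11 by edgeR). Its alternative, Smarca2 or BRM (chromosome 19, 26605050 to 26778322), measured 109, 117 and 111 CPM in the cWT libraries and 31.0, 33.7 and 34.9 CPM in the cKO libraries, a log2 change of -1.76 (SE 0.10, adjusted p = 3.58e-11 by edgeR). The genotypes did not overlap for either ATPase, and the libraries of a genotype lay close together. Per kilobase of transcript, Smarca2 stood at 19.0 and Smarca4 at 16.8 CPM per kilobase in cWT, and at 5.61 and 4.86 in cKO. The log2 ratio of Smarca2 to Smarca4 counts within a library was 0.08 ± 0.08 in cWT and 0.10 ± 0.07 in cKO (SD, n = 3 each), and the genotypes overlapped (exact two-sided permutation p = 0.7).

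Among the 12 BAF and PBAF subunits chosen by symbol, Arid1a and Arid1b fell furthest on the TMM scale. With the length and GC offsets Arid1a and Smarcd1 were lowest, at -1.37 and -1.31, and Arid1b stood at -0.35. Arid1a, the DNA-binding subunit of canonical BAF (chromosome 4, 133679008 to 133756769), was the most abundant member in cWT at 34.6 CPM per kilobase. It measured 269.9, 281 and 297 CPM in the cWT libraries and 35.8, 37.9 and 34.2 CPM in the cKO libraries, a log2 change of -2.97 (SE 0.10, adjusted p = 4.04e-13 by edgeR), or 7.86-fold. No other member fell as far. In cKO it stood at 4.40 CPM per kilobase, and the highest levels there were those of Smarcd2 and Smarce1, at 38.4 and 29.1. Arid1b, which takes the same place in the complex, went from 72.7, 76.4 and 80.9 to 17.6, 17.6 and 19.8 CPM, a log2 change of -2.06 (SE 0.11, adjusted p = 1.85e-11 by edgeR). Arid1a thus fell more than its alternative in every cKO library: the log2 ratio of Arid1a to Arid1b counts was 1.89, 1.88 and 1.88 in cWT and 1.02, 1.10 and 0.79 in cKO. Arid2, the DNA-binding subunit of PBAF, measured 72.9 ± 1.5 CPM in cWT and 21.6 ± 4.14 CPM in cKO (SD, n = 3 each) and fell by 1.76 on the log2 scale (SE 0.12).

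Of the core subunits, Smarcc2 and Smarcc1, the scaffold on which the complex assembles, fell. Smarcc2 (chromosome 10, 128459248 to 128490482) measured 119 ± 6.96 CPM in cWT and 40.1 ± 4.38 CPM in cKO, a log2 change of -1.57 (SE 0.10, adjusted p = 2.95e-10 by edgeR), and Smarcc1 measured 43.3 ± 1.52 CPM in cWT and 20.8 ± 2.09 CPM in cKO, a log2 change of -1.06 (SE 0.12, adjusted p = 1.80e-07 by edgeR). With the length and GC offsets Smarcc2 stayed lower at -0.82, and Smarcc1 was not called at -0.12 (adjusted p = 0.382). Smarcb1, the core subunit known as SNF5 that is lost in rhabdoid tumours (chromosome 10, 75896769 to 75921617), measured 28.8, 35.6 and 32.1 CPM in the cWT libraries and 29.8, 30.3 and 38.9 CPM in the cKO libraries, with overlapping genotypes and a log2 change of 0.04 (SE 0.13, adjusted p = 0.794 by edgeR). Smarcb1 was called lower with the offsets, at -0.61 (adjusted p = 2.41e-05), and with library size alone, at -0.36 (adjusted p = 0.0213). Smarce1, the HMG-box subunit BAF57 (chromosome 11, 99209047 to 99231017), measured 58.6, 62.4 and 62.3 CPM in the cWT libraries and 85.2, 84.1 and 85.3 CPM in the cKO libraries. It was higher in each cKO library than in any cWT library, a log2 change of 0.47 (SE 0.09, adjusted p = 1.40e-04 by edgeR) on the TMM scale, and stood at 0.08 with no call when libraries were scaled by size alone (adjusted p = 0.438).

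The BAF60 subunits, encoded by Smarcd1, Smarcd2 and Smarcd3, bridge the complex to transcription factors, and Smarcd2 is known for its part in neutrophil maturation. Smarcd1 (chromosome 15, 99702129 to 99713991) measured 30.0, 32.3 and 35 CPM in the cWT libraries and 10.8, 9.39 and 9.26 CPM in the cKO libraries, a log2 change of -1.73 (SE 0.13, adjusted p = 1.55e-09 by edgeR). Smarcd2 (chromosome 11, 106263179 to 106272972) measured 72.2, 86.5 and 86.9 CPM in the cWT libraries and 93.6, 96.4 and 127 CPM in the cKO libraries, a log2 change of 0.37 (SE 0.12, adjusted p = 0.00975 by edgeR). The genotypes separated in opposite directions for these paralogs, although the increase of Smarcd2 was not called without cWT replicate 1 (log2 fold change 0.28, adjusted p = 0.0678) and turned to -0.03 with library size alone (adjusted p = 0.847), which is above the median of all genes on that scale. Within libraries, the log2 ratio of Smarcd1 to Smarcd2 counts was -1.27, -1.42 and -1.31 in cWT and -3.11, -3.35 and -3.77 in cKO, a difference of -2.08 that does not depend on scaling between libraries. The annotated transcripts of this pair are alike in length, at 3307 and 2747 bases, and in GC content, at 57.2% and 56.9%. Smarcd3, the BAF60 form best known from heart and neurons, was low at 3.94, 3.33 and 3.39 CPM in the cWT libraries and 3.12, 4.69 and 6.83 CPM in the cKO libraries, and did not pass the test (log2 fold change 0.47, adjusted p = 0.128). It passed without cKO replicate 1 (0.70, adjusted p = 0.0211). Smarcd3 shares 2466 exonic bases with Chpf2 and Smarcd1 287 with Gm17349, each on the opposite strand, so that reads of these partners cannot be told apart if strand was not used in counting. The same limit holds for other members with such overlaps, among them Chd8 (953 bases with Gm26590) and Arid3b (360 with Gm17231). Arid4b (257 with Ggps1) and Smarcc1 (123 with Dhx30) are further cases.

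The ISWI ATPases space nucleosomes in regular arrays. Smarca5, or SNF2H (chromosome 8, 80698507 to 80739497), measured 103, 82.2 and 86.2 CPM in the cWT libraries and 61.7, 62.7 and 57.1 CPM in the cKO libraries, a log2 change of -0.58 (SE 0.10, adjusted p = 7.20e-05 by edgeR). It fell by 1.5-fold, and with the offsets it was called higher instead, at 0.25 (adjusted p = 0.00978). Smarca1, or SNF2L, was close to the limit of detection with 6, 11 and 6 counts in cWT and 18, 9 and 2 in cKO, and did not pass the test (adjusted p = 0.148, or 0.0201 once cKO replicate 3 was left out). Smarcad1, which acts at replicated chromatin and at DNA ends, measured 33.0 ± 2.28 CPM in cWT and 14.6 ± 3.69 CPM in cKO and fell by 1.19 on the log2 scale. Smarcal1, which remodels stalled replication forks, measured 38.7 ± 0.848 CPM in cWT and 29.5 ± 3.03 CPM in cKO, the smallest decrease among the called members at -0.39 (SE 0.11, adjusted p = 0.00448 by edgeR).

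Among the other ARID genes, 5 of 6 fell, beside 36.5% of all genes, with a median log2 fold change of -1.37. With the length and GC offsets 4 fell and 1 rose, with a median of -0.60. Arid5b, which recruits a histone demethylase, measured 23.0, 22.8 and 22.8 CPM in the cWT libraries and 7.01, 5.93 and 6.91 CPM in the cKO libraries, a log2 change of -1.79 (SE 0.14, adjusted p = 2.85e-09 by edgeR). Its paralog Arid5a, an RNA-binding protein that stabilises transcripts of inflammatory cytokines, measured 26.6, 28.5 and 26.8 CPM in the cWT libraries and 22.4, 27.3 and 26.4 CPM in the cKO libraries. The genotypes overlapped, and the log2 fold change of -0.10 (SE 0.12, adjusted p = 0.442 by edgeR) was not called. It was called higher with the offsets, at 0.78, and lower with library size alone, at -0.50 (adjusted p = 8.33e-07 and 0.00160). The log2 ratio of Arid5a to Arid5b counts was 0.21, 0.32 and 0.23 in cWT and 1.67, 2.19 and 1.93 in cKO, a difference of 1.68. Arid3a and Arid3b, transcription factors that bind AT-rich DNA, measured 64.7 ± 4.53 CPM in cWT and 20.5 ± 3.46 CPM in cKO, and 38.8 ± 0.716 CPM in cWT and 14.8 ± 0.410 CPM in cKO, respectively. Their log2 fold changes were -1.65 and -1.39. Arid4a and Arid4b, parts of the SIN3 histone deacetylase complex, fell with log2 fold changes of -1.34 and -0.84. Arid4b, which holds an 8-base match to the miR-137 seed, measured 46.0, 40.7 and 39.7 CPM in the cWT libraries and 21.3, 29.8 and 19.8 CPM in the cKO libraries, the smaller change of the pair, and was not called with the offsets (-0.06, adjusted p = 0.653).

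All 8 tested CHD genes other than Chd1l fell, and for these 8 each cKO library lay below each cWT library. Among all genes 36.5% fell and 37.9% were separated downward. These 8 genes were in the longest decile of transcript length, where 83.1% of all genes fell. The family had a median log2 fold change of -1.77. With the length and GC offsets 7 fell and 0 rose, with a median of -0.39. Chd4, the main NuRD ATPase of many cell types (chromosome 6, 125095981 to 125130591), was second to Arid1a in cWT level at 30.6 CPM per kilobase. It measured 198, 202 and 214 CPM in the cWT libraries and 56.7, 63.8 and 59.5 CPM in the cKO libraries, a log2 change of -1.77 (SE 0.09, adjusted p = 2.31e-11 by edgeR). Its alternative Chd3 measured 50.2 ± 2.95 CPM in cWT and 18 ± 1.88 CPM in cKO and fell by 1.47 on the log2 scale, but was not called with the offsets (-0.02, adjusted p = 0.881). Chd9 (chromosome 8, 90828352 to 91054516) measured 165, 146 and 164 CPM in the cWT libraries and 34.3, 32.1 and 25.3 CPM in the cKO libraries, a log2 change of -2.38 (SE 0.12, adjusted p = 1.09e-11 by edgeR). Chd7, mutated in CHARGE syndrome (chromosome 4, 8690406 to 8867659), measured 82.9, 85.3 and 89.4 CPM in the cWT libraries and 19.7, 21.6 and 15.7 CPM in the cKO libraries, a log2 change of -2.18 (SE 0.12, adjusted p = 2.69e-11 by edgeR). Chd9 and Chd7, whose 2 and 1 matches to the miR-137 seed are shown above, had the lowest fold changes of the family. The other members with a match, Arid4b and Chd3os, stood at -0.84 and 0.61. Members with a match had a median log2 fold change of -1.51 and those without -1.45. With the length and GC offsets these medians were -0.33 and -0.40. Over all tested genes, those with a match had a median log2 fold change of -0.51 and those without 0.03, which with the length and GC offsets described below became -0.06 and 0.01. Chd6 and Chd8, the latter linked to autism, fell with log2 fold changes of -1.95 and -1.78. Chd1, which binds the methylated histone H3 tail at active genes, and Chd2 fell with log2 fold changes of -1.44 and -1.71. The level of Chd2 is uncertain, since it shares 2628 exonic bases with 1810026B05Rik on the same strand. Chd1l, which is recruited to DNA breaks by poly(ADP-ribose), measured 12.5, 12.5 and 14.8 CPM in the cWT libraries and 13.9, 14.1 and 15.9 CPM in the cKO libraries, with overlapping genotypes and no call (0.14, adjusted p = 0.384). Chd3os, the neighbour of Chd3, measured 5.48, 6.09 and 5.31 CPM in cWT and 10.5, 6.82 and 8.50 CPM in cKO, a log2 change of 0.61 (SE 0.20, adjusted p = 0.0116 by edgeR), and was not called without cKO replicate 1 (adjusted p = 0.0730), with library size alone (adjusted p = 0.346) or with the offsets (adjusted p = 0.656).

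Remodeller transcripts are long, and fold changes in these libraries went with transcript length. The annotated transcripts of the members ran from 1660 to 12008 bases with a median of 5790.5, beside 2998.5 for all tested genes, and 20 of 32 were in the 2 longest deciles of genes. Across the members the Spearman correlation of log2 fold change with length was -0.84 (n = 32), and across all 13408 genes with a length it was -0.72. Both describe genes of the same 6 libraries, which are not independent replicates. In cWT libraries log2 CPM of all genes correlated with length at 0.178 to 0.184, and in cKO libraries at -0.164 to -0.140. In the longest decile 12 of 12 members fell, where 83.1% of all genes of that decile did. In the next decile 8 of 8 fell, beside 75.8%. Of the 5 members in shorter deciles than the sixth, Smarcb1, Smarcd3, Chd3os, Smarcd2 and Smarce1, 0 fell, and the genes of the fifth decile, from 2550 to 2998 bases, had a median of 0.05.

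Set beside the median of its own length decile, each member shows how far it departs from genes of like length. 24 of 32 members lay below that median and 8 above, with a median departure of -0.33. Smarcd1 and Arid1a lay furthest below, at -1.54 and -1.53, and 2.54% and 2.68% of the genes in their deciles had lower values. Smarcb1 lay -0.95 from the median of its decile, a decile whose median was 0.99. Smarcc2, Smarca4 and Smarca2 lay at -0.89, -0.80 and -0.77. Chd3 and Chd1 were close to the median of the longest decile, at -0.032 and 0.00722 from it. Above their deciles lay Arid5a at 0.58, Smarce1 at 0.42, Smarca5 at 0.40, Chd1l at 0.33 and Smarcd2 at 0.32. Arid4b and Chd1 lay 0.15 and 0.00722 above, and Smarca1, on few counts, lay highest at 1.79.

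**Figure D2:**
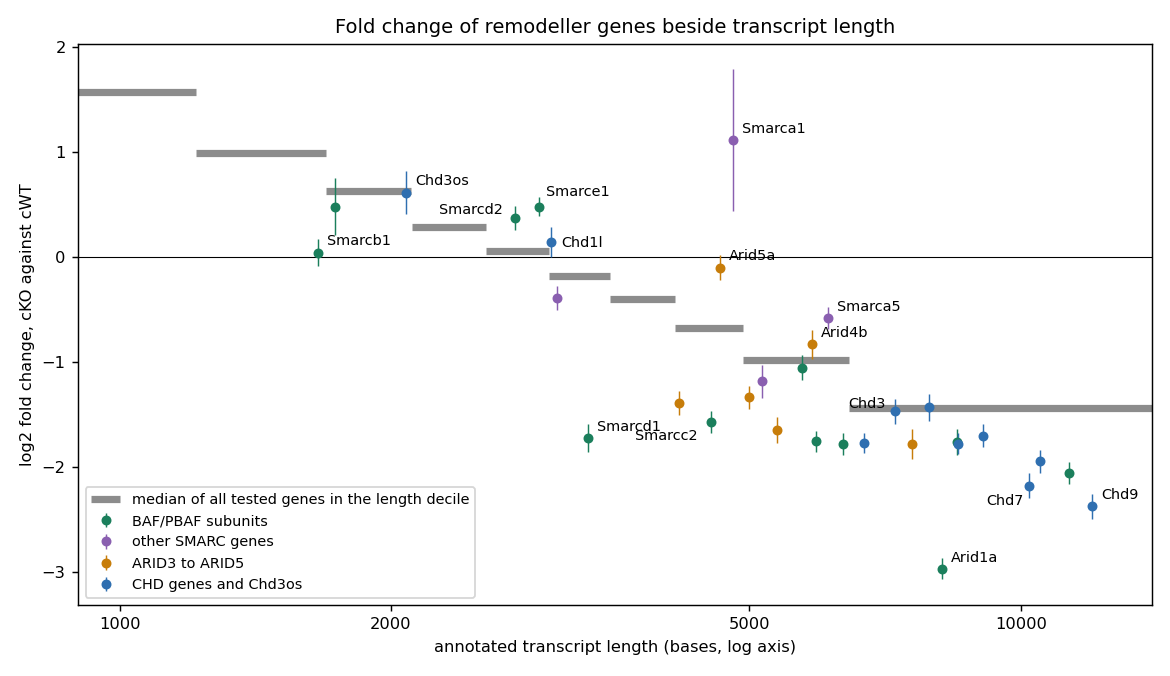
Log2 fold change of each tested member (cKO against cWT, bars show SE) against its annotated transcript length on a log axis. Grey bars give the median of all tested genes in each decile of length, with the shortest and longest deciles drawn in part. Arid1a and Smarcd1 lie furthest below the median of their decile, and Arid5a, Smarce1 and Smarca5 lie above it.

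A second fit took the trend with transcript length and GC content out of each library by offsets, which left a Spearman correlation of -0.0834 between fold change and length over all genes. Of the 21 members lower with the offsets, 20 were also lower without them. Arid1a stood at -1.37 (adjusted p = 1.60e-12), Smarcd1 at -1.31, Chd9 at -0.83, Smarcc2 at -0.82, Smarca2 at -0.72, Chd4 at -0.53 and Smarca4 at -0.49. Chd3, Smarcc1 and Arid4b lost their calls, Smarca5 turned from a fall to a rise, Smarcb1 became lower and Arid5a became higher, with the values given above. Smarcd2 and Smarce1 remained higher at 0.54 and 0.53, and Chd3os was not called. Smarca1 was called at 1.53 (adjusted p = 0.0471), on the few counts given above.

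**Figure D3:**
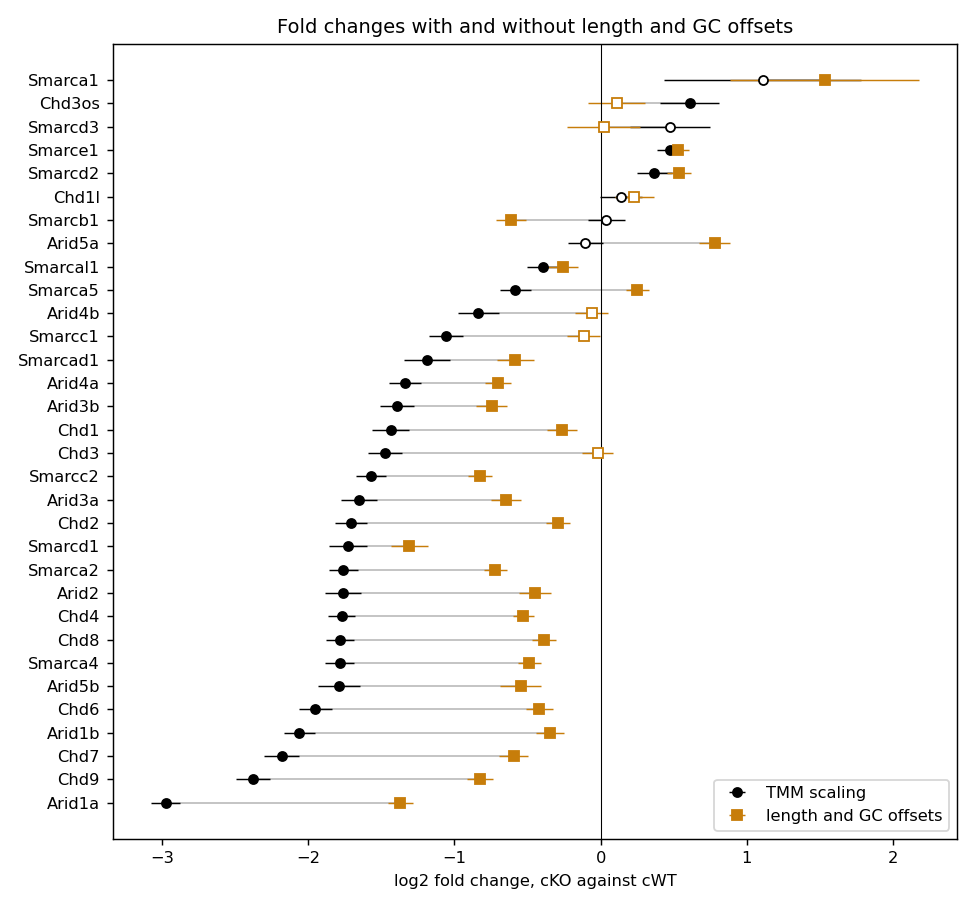
Log2 fold change of each tested member with TMM scaling (black circles) and with length and GC offsets (orange squares), with SE. Filled symbols passed an adjusted p of 0.05. Most long members move toward 0 with the offsets, Arid1a and Smarcd1 stay furthest to the left, and Smarca5, Smarcb1 and Arid5a change sign.

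Paralogs, some with the same place in a complex, were compared within libraries, where the ratio of their counts does not depend on scaling. The others, such as Chd6 to Chd9 and Arid5a and Arid5b, are relatives by family. Of 18 pairs, the genotypes did not overlap for 12, and for each of these 12 the difference kept its sign once the offsets were taken off. Its size changed: Chd1 to Chd2 went from 0.27 to 0.03 and Chd7 to Chd8 from -0.41 to -0.21. Smarcc1 to Smarcc2 went from 0.52 to 0.70 and Chd3 to Chd4 from 0.29 to 0.51. No share over other gene pairs was computed, and among all single genes 37.9% separated downward and 36.7% upward. Some genes recur in several pairs, among them Chd6 to Chd9 and Smarcd1 to Smarcd3, so the pairs are not separate observations. With 3 libraries against 3 the exact two-sided permutation test cannot go below p = 0.1, so none could pass the threshold, and the smallest value adjusted over the 18 pairs was 0.15. Among the pairs without overlap the largest differences were those of Smarcd1 to Smarcd3 at -2.11, Smarcd1 to Smarcd2 at -2.08, Arid5a to Arid5b at 1.68 and Arid1a to Arid1b at -0.91 on the log2 scale. With the offsets these stood at -1.26, -1.83, 1.33 and -1.02. Smarcc1 gained on Smarcc2 (0.52), Chd3 on Chd4 (0.29) and Chd8 on Chd9 (0.60), while Arid4a lost to Arid4b (-0.49) and Chd7 to Chd8 (-0.41). The ratio of Smarca2 to Smarca4 differed by 0.02, that of Smarcd2 to Smarcd3 by -0.04 and that of Smarca1 to Smarca5 by 1.28, each with overlapping genotypes. Offsets changed these differences to -0.24, 0.57 and 0.91.

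**Figure D4:**
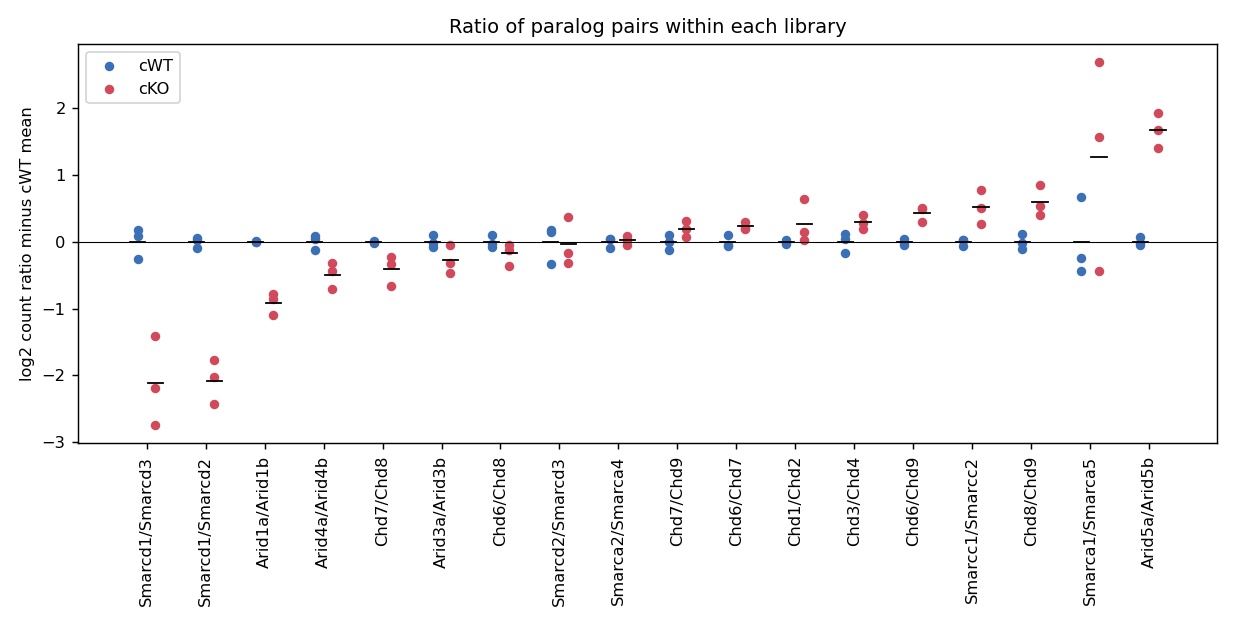
Log2 ratio of the counts of 2 paralogs in each library, with the cWT mean of the pair set to 0, for 3 cWT (blue) and 3 cKO (red) libraries and a bar at each mean. The 2 pairs at the left, with Smarcd1, and Arid5a/Arid5b at the right show cKO libraries well away from cWT, and Smarca2/Smarca4 does not.

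Other genes of the same complexes or of related families were taken from lists of 85 tested genes in all. The INO80 family, other SNF2 ATPases and other ARID genes among them are relatives by family. The 85 genes moved in both directions: 39 fell and 28 rose, with a median log2 fold change of -0.20. These are 45.9% lower and 32.9% higher, beside 36.5% and 35.6% of all genes, against which the counts of each list are also to be read. With the offsets 33 fell and 17 rose. Of the subunits that define PBAF and non-canonical BAF, 4 of 6 tested genes fell and 0 rose, with a median of -0.91 (4 and 0 with the offsets, median -0.71). Gltscr1 and Gltscr1l, alternative subunits of non-canonical BAF, dropped from 39.8 ± 1.34 to 4.15 ± 0.937 CPM and from 71.7 ± 5.11 to 16.1 ± 0.724 CPM, or by log2 fold changes of -3.24 and -2.16. Pbrm1, the bromodomain subunit of PBAF, fell by 1.52. Among other BAF genes 4 of 9 tested genes fell and 3 rose, with a median of -0.20 (3 and 1 with the offsets, median -0.16). Bcl7c rose by 1.3 and Bcl7a fell by 1.15. Bcl11a, a transcription factor found with BAF, fell by 2.85 (SE 0.40) at a low level, from 3.17 ± 0.199 to 0.433 ± 0.0849 CPM. With the offsets Gltscr1, Gltscr1l, Bcl11a and Bcl7c stood at -1.84, -1.01, -1.95 and 0.57.

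Of the ISWI partners, 7 of 9 tested genes fell and 2 rose, with a median of -1.5 (5 and 3 with the offsets, median -0.27). Bptf and Baz2a had log2 fold changes of -2.15 and -2.05, and Chrac1, a small histone-fold subunit with a transcript of 871 bases, rose by 1.84. Of the NuRD partners of Chd3 and Chd4, 3 of 12 tested genes fell and 5 rose, with a median of 0.24 (5 and 4 with the offsets, median -0.07). The histone-binding subunit Rbbp4 rose by 0.91 and Gatad2a and Gatad2b fell, at -0.93 and -2.10. Rbbp4 was also higher with the offsets, at 1.35. In the INO80 family 5 of 20 tested genes fell and 12 rose, with a median of 0.61 (6 and 4 with the offsets, median 0.04). Its subunit Ino80d and the ATPases Ep400 and Srcap fell, at -2.77, -2.31 and -2.66, and the genes that rose had transcripts of 740 to 2498 bases. Of other SNF2 ATPases, 9 of 13 tested genes fell and 0 rose, with a median of -0.99 (5 and 0 with the offsets, median -0.29). Rad54l2, Atrx and Btaf1 had log2 fold changes of -2.29, -1.85 and -1.39. Of the SIN3 partners of Arid4a and Arid4b, 2 of 11 tested genes fell and 6 rose, with a median of 0.43 (2 and 5 with the offsets, median 0.19). The scaffold Sin3b, with an annotated transcript of 4115 bases, rose from 79.0 ± 3.46 to 195 ± 5.97 CPM, and its log2 fold change was 1.3, or 1.99 with the offsets. Sap130 fell by 1.61 and Sap30 rose by 1.21, a call lost with the offsets (0.041, adjusted p = 0.753). All 5 other ARID genes fell, 3 of them also with the offsets (medians -1.63 and -0.20), among them Jarid2, Kdm5a and Kdm5c at -1.72, -1.65 and -1.63.

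**Figure D5:**
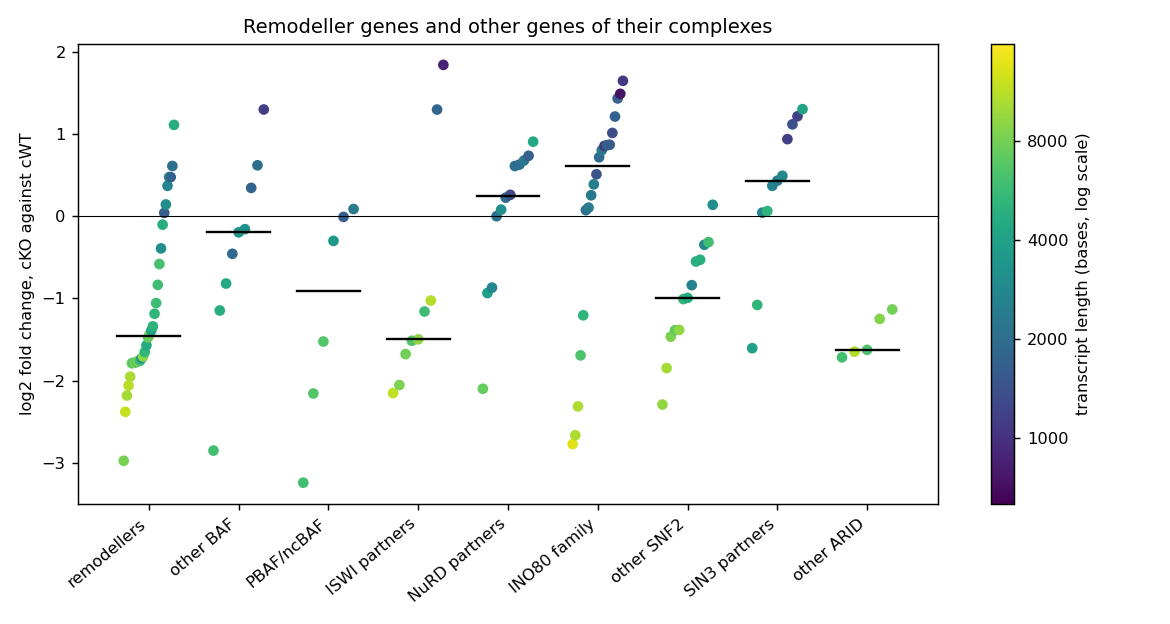
Log2 fold change (cKO against cWT) of the tested members and of other genes of their complexes or of related families. Each point is a gene coloured by annotated transcript length, with a bar at the median of the group. The members have a median of -1.45, and within the NuRD, INO80 and SIN3 groups the short transcripts lie mostly above 0.

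Markers of other cells moved with genotype too, and their part in the remodeller results was not tested. Monocyte and neutrophil markers summed to 2837 to 3496 CPM in cWT and 9875 to 14423 CPM in cKO, and 5 of 6 tested rose and 1 fell, with the offsets 0 and 3. Their median log2 fold change was 1.60, and -0.11 with the offsets. Astrocyte markers summed to 465 to 495 CPM in cWT and 588 to 810.5 CPM in cKO (3 of 8 tested rose and 0 fell, with the offsets 6 and 0), and endothelial and mural markers to 1043 to 1271 CPM in cWT and 1429 to 1729 CPM in cKO (2 of 7 tested rose and 5 fell, with the offsets 1 and 4). Oligodendrocyte markers summed to 306 to 311 CPM in cWT and 298 to 438 CPM in cKO (4 of 8 tested rose and 2 fell, with the offsets 5 and 2), and border-associated macrophage markers to 749 to 952 CPM in cWT and 655 to 826 CPM in cKO (3 of 6 tested rose and 1 fell, with the offsets 3 and 2). Neuronal markers were low in both genotypes, at 17.4 to 20.9 CPM in cWT and 23.6 to 31.4 CPM in cKO over 10 genes, as were lymphocyte markers, at 14.1 to 15 CPM in cWT and 12.9 to 14.1 CPM in cKO over 8 genes. No marker in the table was at 0 in all 6 libraries. Of the 12 microglial markers, 5 rose and 5 fell, with the offsets 2 and 6.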

How the data were processed

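RNA-seq libraries of 3 cWT and 3 cKO samples were grouped by their titles. The authors deposited estimated counts per gene symbol, without scaling. The submitters' processing notes name STAR 2.7.9a, RSEM, DESeq2 and the build GRCm38 (mm10), while the annotation and the strand setting were not given in the sources used here. In a column 5.50% to 5.85% of values were not whole, and all were rounded. A second deposited table gave the authors' log2 fold changes and adjusted p-values, under DESeq2's column names per the file headers.

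All genes were fitted with edgeR 4.0.16 in R 4.3.3 (quasi-likelihood test, two-sided, TMM, filterByExpr with a minimum count of 10, robust), with Benjamini-Hochberg adjustment over the 13490 genes kept. CPM use TMM factors. Counts of libraries of 1 genotype differed beyond sampling noise (chi-square per degree of freedom 3.76 to 18.2). Lengths, GC and 3' UTRs came from GENCODE M21 (GRCm38), with the principal transcript for length, and 13408 tested genes had a length. Offsets were natural splines with 5 degrees of freedom in log2 length and in GC, fitted per library. Paralog ratios used counts plus 0.5. The text names every tested member and, of each partner list, the 3 genes with the smallest p. Alternatives were DESeq2 1.42.0, limma-voom (limma 3.58.1), other scalings and filters, a replicate block and leaving out each library. The fit was tested on simulated data. Members and lists were chosen with earlier results of these data known.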

Additional observations from a re-analysis of the deposited data

How the results depend on the processing

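Over the 14 alternative fits of all genes, 425 of 446 values of single members kept their direction and their side of the threshold, 8 lost a call, 4 gained one and 9 changed sign. With library size alone, 0 members rose and their median was -1.85, with Smarcd2 at -0.027, Smarcb1 at -0.36 and Chd1l at -0.25. With length and GC offsets, 5 members and 17 partner genes rose, the median of the members was -0.40, and Smarca5, Smarcb1 and Arid5a stood at 0.25, -0.61 and 0.78; the cause of these shifts was not tested. The offsets also turned the ratio difference of Smarca2 to Smarca4 to -0.24, of Smarcd2 to Smarcd3 to 0.57 and of Arid3a to Arid3b to 0.0802. By the exact permutation test p was 0.1, the smallest possible, for Smarca2 to Smarca4 and for Smarcd2 to Smarcd3. It was 0.7 for Arid3a to Arid3b. Smarcb1 was at -0.00414 with no filter on low counts, and at -0.0417 and -0.0850 without cWT replicate 1 or cKO replicate 3, in each of these 3 without a call. Over the 6 fits that leave out a library Smarcb1 ran from -0.0850 to 0.114. Leaving out each library in turn gave 24 members lower each time and 2 to 4 higher, with a median of -1.48 to -1.44, 4597 to 4875 genes lower and 4518 to 4842 higher among all genes, and ratio differences of -0.0193 to 0.0579 for Smarca2 to Smarca4 and -0.240 to 0.102 for Smarcd2 to Smarcd3. Other tools and filters gave 24 members lower and 3 higher, as in the report, and a pseudocount of 1 changed the sign of no ratio.

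The replicate numbers share no stated origin. Deviations from the genotype means correlated at 0.0985, 0.0335 and 0.0882 for libraries of the same number, and each library correlated best with its own number. A fit with the replicate block gave 24 members lower and 3 higher with a median of -1.46, 39 partner genes lower and 32 higher, and 5028 genes lower and 4883 higher. With pairs of the same number, the exact sign-flip test of the ratios cannot go below p = 0.25. With the 8-base seed site in place of the 7-base match, 3 members held a site, and with the longest transcript of each gene the median departure of the members from their length decile was -0.34. Smarca1 and Smarcd3 rest on too few counts for small changes to be detectable at this depth.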
